A study of Rattus norvegicus with 6 samples.

Results

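Glycosyltransferases and glycan-trimming enzymes build and remodel the sugar chains of secreted proteins and proteoglycans. Their transcripts were compared here between rat pituitary organ cultures left as controls and those given gonadotropin-releasing hormone (GnRH). The members are the genes whose single symbol in the array annotation begins with one of the family names of these enzymes, such as Alg, Mgat, Galnt, St3gal, Chst or Ext. The rule found 179 probe sets for 113 genes, out of 14217 named genes on the array, and a gene is represented by its brightest probe set, that of the highest mean over the 6 arrays. That mean chose the probe set, so levels are given as a description. The closest choice was for Csgalnact1, whose 2 probe sets differed by 0.017 in mean log2 intensity. Of the members, 69 had 1 probe set and 44 had several.

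The study comprised 3 control samples and 3 samples given 10 nM GnRH, with 1 array per sample, all from rat pituitary organ culture. GnRH, a peptide of the hypothalamus, drives gonadotropes to release LH and FSH. The question was how expression profiles of treated and control cultures compare. The sources used here do not give the strain, age, sex or number of rats, or the length of treatment. No label says that the samples came from separate cultures or animals, so the p-values reflect only sample-to-sample spread, which may be technical.

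LH, FSH and thyrotropin are glycoproteins, and their chains follow the usual route of N-glycans. A dolichol-linked precursor is assembled by Alg enzymes in the endoplasmic reticulum and moved onto the protein. Glucosidases and mannosidases then trim it, N-acetylglucosaminyltransferases of the Mgat family branch it, and galactose, fucose, sialic acid or sulfate complete it in the Golgi. In the pituitary, LH and thyrotropin are known for chains ending in sulfated N-acetylgalactosamine, whose sulfate is added by Chst8 or Chst9, whereas FSH carries mainly sialic acid. Other members start mucin-type O-glycans on serine and threonine, or build the chondroitin and heparan sulfate chains of proteoglycans.

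The tissue was marked by high hormone transcripts, with log2 intensities of 14.1 to 14.3 for Gh1, 13.8 to 14.2 for Prl and 12.8 to 13.3 for Cga. Control 3 stood apart from the other controls. Its log2 values correlated with controls 1 and 2 at 0.983 and 0.986 across probe sets, against 0.994 between those 2 controls, and with the GnRH arrays at 0.988 to 0.991. Xist, a transcript of female cells, averaged 4.12 and 3.98 over 4 probe sets for controls 1 and 2, whereas control 3 had 7.34 and the GnRH arrays 7.14 to 7.16. Low Xist was seen on 2 control arrays alone. Members for which control 3 moves the call are given without it and with the Xist level as a covariate, a fit in which control 3 is the only control at the level of the GnRH arrays. The mean level of 6 measured markers of the posterior lobe and glia was 6.88 to 7.17 in controls and 5.97 to 6.64 with GnRH, that of 7 folliculostellate markers 7.93 to 8.03 and 7.48 to 7.81, and that of 2 lactotrope markers 10.8 to 10.9 and 11.2 to 11.3. Gfap, counted in both of the first lists, had a log2 fold change of -1.97 (limma adjusted p = 0.0835). Of the other folliculostellate markers, S100b, Sox2 and Aldh1a2 had 0.15, 0.018 and 0.074, whereas Anxa1, Cdh1 and Fxyd1 had -0.48, -0.37 and -0.084. Of the lactotrope markers, Drd2 rose by 0.56 (limma adjusted p = 0.0399), and Prl had 0.24 (0.387) and did not pass. The mean of 3 measured corticotrope and melanotrope markers was 6.83 to 7.73 in controls and 6.13 to 7.03 with GnRH. The part of cell composition in the results was not tested, and in tissue arrays fewer cells of a type and less RNA per cell cannot be told apart.

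With GnRH, transcripts of 5 members rose and none fell. They were Chpf, Mogs, Mgat4b, Chst1 and Maneal, with rises from 1.43-fold to 1.95-fold (limma, Benjamini-Hochberg adjusted p under 0.05 over all 31042 probe sets). By the same test 0.464% of all probe sets passed, with 0.422% higher and 0.0419% lower. Of the 14217 named genes 0.556% rose and 0.0492% fell. The members were chosen with such results known, so their count is a description. At an unadjusted p under 0.05, 16 members were higher and 6 lower, where 8.04% of named genes were higher and 5.17% lower. The groups did not overlap in 17 members that were higher and 8 that were lower, against 8.65% and 8.62% of named genes. Most members differed little. In 96 of 113 the log2 fold change lay within 0.25 of 0, and their median was 0.0096, beside -0.0089 for all named genes and -0.025 for all probe sets. The lowest was St8sia2 at -0.33 and the highest B4galt4 at 1.09, neither past the threshold. Grouped by the step they serve, the changed members included 3 of 16 in the trimming and branching of N-glycans. The others were 1 of 6 in sulfation of hormone and lactosamine chains and 1 of 14 in chondroitin and linker synthesis. In the other 7 groups 0 of 77 members passed, and 10 had an unadjusted p under 0.05.

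**Figure D1:**
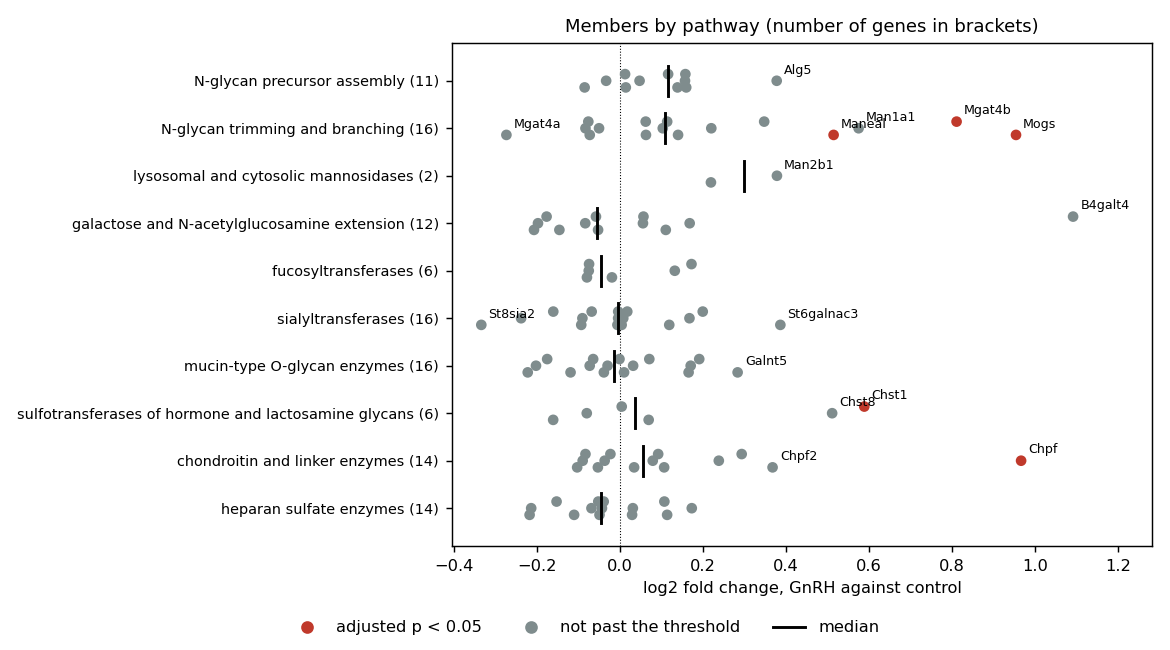
Log2 fold change (GnRH against control, n = 3 arrays each) of the 113 members by pathway, with the median of each pathway as a bar and members past the adjusted threshold in red. The 5 red points lie at 0.51 to 0.97, while most grey points lie within 0.25 of 0 and B4galt4, at 1.09, did not pass.

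Trimming and branching of N-glycans held 3 of the 5 members that rose. Mogs, glucosidase I, cuts the outermost glucose from the chain just after its transfer to protein. Its log2 intensities were 6.86, 7.09 and 7.09 on control arrays, against 7.79, 8.11 and 8.01 with GnRH. All 3 GnRH arrays lay above all controls, and control 3 lay beside control 2. The rise was 0.95 ± 0.11 (SE) on the log2 scale, or 1.94-fold (95% interval 0.71 to 1.20 on the log2 scale, limma adjusted p = 0.00807).

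Mgat4b, which adds an N-acetylglucosamine branch to the mannose core, had 6.61, 6.60 and 6.63 in controls and 7.62, 7.41 and 7.25 with GnRH. The 3 controls were nearly equal and the GnRH arrays were spread above them. It rose by 0.81 ± 0.10, or 1.75-fold (limma adjusted p = 0.0118). Mgat4a, which catalyses the same step, had 7.001, 7.201 and 6.810 against 6.61, 6.71 and 6.86, the means differing by -0.27 ± 0.11 (limma adjusted p = 0.375). Its groups overlapped, through control 3 and GnRH 3. The other Mgat4a probe set gave -0.058, also with overlapping groups. The difference between the responses of Mgat4a and Mgat4b was not tested.

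Maneal, a relative of the Golgi endomannosidase Manea, had 6.08, 5.98 and 5.91 against 6.46, 6.48 and 6.58. The groups were apart, with a rise of 0.51 ± 0.09, or 1.43-fold (limma adjusted p = 0.0399). Manea itself had a difference of -0.083 ± 0.09 (limma adjusted p = 0.743).

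Chpf, the chondroitin polymerizing factor that works with the chondroitin synthases to lengthen the chain, had 7.98, 8.02 and 7.93 in controls and 8.88, 9.14 and 8.82 with GnRH. The 2 groups lay far apart beside a spread of 0.0455 (SD) among controls. The rise was 0.97 ± 0.10, or 1.95-fold (limma adjusted p = 0.00586). Chst1, which sulfates galactose in keratan sulfate and other lactosamine chains, had 6.33, 6.29 and 6.20 against 6.76, 6.85 and 6.98. It rose by 0.59 ± 0.09, or 1.50-fold (limma adjusted p = 0.0269), again without overlap.

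Control 3 lay nearer to the other controls than to the GnRH mean in each of these 5 genes. The test favours such genes, since it passes a gene when the controls lie close together, and the same held for 143 of all 144 probe sets that passed. Chpf passed whichever array was left out, with limma adjusted p of at most 0.0361. Mogs lost its call without GnRH 2 (limma adjusted p = 0.0545) and Mgat4b without control 2 (0.0610) or GnRH 2 (0.0791). Chst1 and Maneal passed without control 3 and in no other fit without 1 array, with limma adjusted p of up to 0.145 and 0.182. Leaving out control 1, GnRH 1 or GnRH 3 gave 3 members past the threshold each, leaving out control 2 gave 2, leaving out GnRH 2 gave 1 and leaving out control 3 gave 14. Of all probe sets, 7.44% passed once control 3 was dropped, beside 0.464% with all 6 arrays. The share fell to 0.222% when control 1 was dropped and to 0.0902% for control 2. Dropping each GnRH array in turn, from 1 to 3, left 0.164%, 0.0644% and 0.209%. The lower counts of members in these fits thus came with fewer calls over the whole array.

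**Figure D2:**
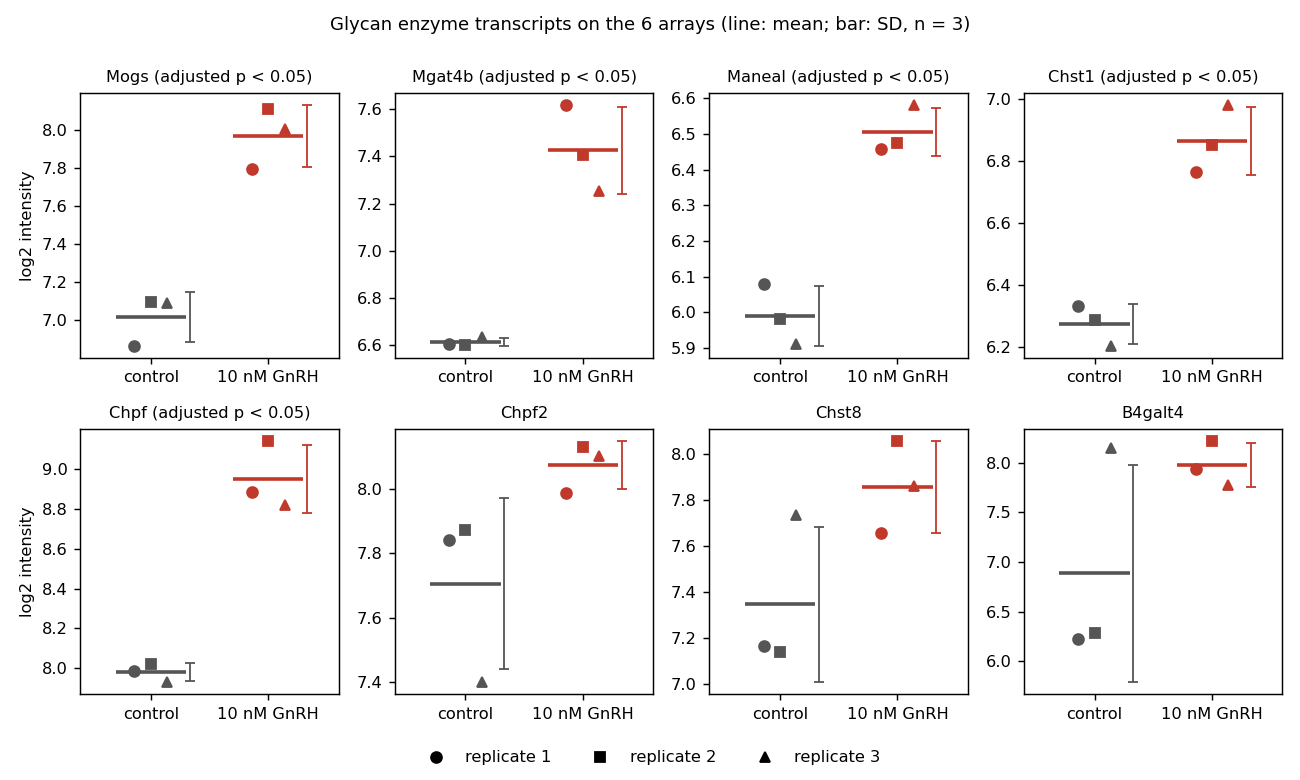
Log2 intensity of 8 members on each array, with the 3 control and 3 GnRH arrays as points marked by replicate number, the group mean as a line and the SD (n = 3) as a bar beside it; the vertical axes differ and do not start at 0. In Mogs, Mgat4b, Maneal, Chst1 and Chpf the groups stand apart, while in Chst8 and B4galt4 control 3 (triangle) lies among the GnRH arrays and in Chpf2 it lies below the other controls.

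Upstream windows were read for the changed members because their transcripts moved the same way. The promoter table from RefSeq (build GRCr8; 250 bases before to 50 after the start of transcription) held 92 of the 113 members and 4 of the 5 that rose, with no entry for Chst1. Chst8 was added as the sulfotransferase of LH chains. In the windows below, read 5′ to 3′ on the strand of the gene, capitals mark matches to the motifs searched, on either strand, and the start is base 251. The Mgat4b window is not at the outermost annotated start of the gene.

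Chpf, chr9:84416474-84416773, minus strand: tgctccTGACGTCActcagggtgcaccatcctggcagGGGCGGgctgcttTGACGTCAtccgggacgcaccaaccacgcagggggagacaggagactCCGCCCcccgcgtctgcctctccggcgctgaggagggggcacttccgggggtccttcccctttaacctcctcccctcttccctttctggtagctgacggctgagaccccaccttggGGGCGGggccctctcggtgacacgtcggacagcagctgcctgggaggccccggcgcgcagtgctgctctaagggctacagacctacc
Mogs, chr4:117179085-117179384, plus strand: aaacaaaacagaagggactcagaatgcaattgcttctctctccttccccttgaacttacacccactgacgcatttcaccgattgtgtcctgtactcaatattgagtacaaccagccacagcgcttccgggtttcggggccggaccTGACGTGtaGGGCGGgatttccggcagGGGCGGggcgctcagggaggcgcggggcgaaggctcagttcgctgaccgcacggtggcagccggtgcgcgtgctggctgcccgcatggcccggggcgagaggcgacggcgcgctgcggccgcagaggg
Mgat4b, chr10:35050262-35050561, plus strand: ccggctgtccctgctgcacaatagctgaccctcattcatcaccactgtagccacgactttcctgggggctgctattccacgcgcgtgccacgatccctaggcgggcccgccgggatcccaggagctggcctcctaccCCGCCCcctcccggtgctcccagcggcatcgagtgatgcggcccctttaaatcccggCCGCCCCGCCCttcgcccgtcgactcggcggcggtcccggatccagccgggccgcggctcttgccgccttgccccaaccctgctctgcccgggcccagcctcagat
Maneal, chr5:142406911-142407210, minus strand: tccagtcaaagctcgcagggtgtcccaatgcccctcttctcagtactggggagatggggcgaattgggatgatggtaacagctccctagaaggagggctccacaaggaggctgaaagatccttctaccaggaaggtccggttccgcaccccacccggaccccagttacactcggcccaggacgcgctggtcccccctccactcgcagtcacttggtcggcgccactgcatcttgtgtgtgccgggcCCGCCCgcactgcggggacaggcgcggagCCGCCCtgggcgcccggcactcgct
Chst8, chr1:96572831-96573130, minus strand: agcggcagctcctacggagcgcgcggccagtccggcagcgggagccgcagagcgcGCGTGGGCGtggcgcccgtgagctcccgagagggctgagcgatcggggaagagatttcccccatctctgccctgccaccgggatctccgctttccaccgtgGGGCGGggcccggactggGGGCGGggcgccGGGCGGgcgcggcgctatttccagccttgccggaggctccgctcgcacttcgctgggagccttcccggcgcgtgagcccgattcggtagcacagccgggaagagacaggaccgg

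The Chpf window held the cyclic AMP response element TGACGTCA at 2 places, from bases 7 and 51. This motif was present in 4 of 92 member windows (Chpf, B4galt3, Galnt11 and Hs3st2) and in 1.91% of the 27457 windows in the table, which include non-coding genes. The Mogs window held TGACGTG, the core of the unfolded protein response element, from base 146; it was present in 2 member windows and in 1.88% of all. The Chst8 window held GCGTGGGCG, a binding sequence of Egr factors, from base 56, present in 1 member window and in 0.59% of all. The other Egr sequence searched, GCGGGGGCG, was in 4 member windows and 2.79% of all, and ACGTGGC, the Golgi apparatus stress response element, in 3 and 2.39%; neither was in the windows shown. The endoplasmic reticulum stress element was in 0 member windows and 0.076% of all. The GC box GGGCGG, which overlapped an Egr sequence in some windows, was in all 4 windows of the members that rose, in 58 of 92 member windows and in 34.9% of all. Base composition differs in the same way, with a median GC content of 63.2% for member windows and 52.3% for all. TGACGTG and ACGTGGC overlapped in 60 windows of the table. A match is a description of letters and not a measured binding site.

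The genes next to those that rose did not pass the test. Obsl1, beside Chpf, had a log2 fold change of 0.40 ± 0.12 (limma adjusted p = 0.237), and Yrdc, beside Maneal, 0.48 ± 0.11 (0.108). Sqstm1 and Ltc4s, on either side of Mgat4b, had -0.062 and -0.076, and Mrpl53 and Wbp1, around Mogs, 0.094 and 0.21. Slc35c1, the Golgi GDP-fucose transporter and nearest measured coding gene on one side of Chst1, had 0.41 ± 0.11 (limma adjusted p = 0.191).

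The other trimming and branching enzymes did not pass. Man1b1, the mannosidase that marks slowly folding glycoproteins, had 8.99, 9.02 and 9.20 in controls and 9.29, 9.28 and 9.29 with GnRH. The gap between the groups was smaller than the spread of the controls, with a difference of 0.22 ± 0.09 (limma adjusted p = 0.366). The other Man1b1 probe set gave -0.011, with overlapping groups. Mgat2, which adds the N-acetylglucosamine that opens the other arm of the chain, had 7.05, 7.08 and 7.49 against 7.53, 7.56 and 7.58, the means differing by 0.35 ± 0.12 (limma adjusted p = 0.289). Control 3 lay next to the GnRH arrays, and without it Mgat2 passed at 0.49 (limma adjusted p = 0.00755). With the Xist covariate its difference was 0.087 ± 0.10 (limma adjusted p = 0.848). Man1a1, a Golgi mannosidase singled out after its values were seen, had 6.11, 6.08 and 7.09 against 6.98, 7.22 and 6.80. Control 3 lay within the range of the GnRH arrays, and the difference was 0.57 ± 0.23 with it (limma adjusted p = 0.356) and 0.91 ± 0.12 without it (0.00200). With the Xist covariate it turned to -0.028 ± 0.14 (limma adjusted p = 0.973). Mgat1, which adds the first branch, differed by 0.10 ± 0.10 and Man2a1, the Golgi mannosidase that follows it, by 0.14 ± 0.11. Man2a1 turned to -0.031 when all its probe sets were averaged. The 16 members of this group had a median log2 fold change of 0.11.

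Assembly of the precursor showed small differences, mostly upward. Of 11 Alg genes 9 had a log2 fold change above 0, beside 6761 of 14217 named genes. Their median was 0.12, and none passed the threshold. Alg5, which makes the dolichol-linked glucose donor, had 7.75, 7.79 and 8.34 in controls and 8.25, 8.46 and 8.30 with GnRH. Control 3 was among the GnRH arrays, and the difference was 0.38 ± 0.15 (limma adjusted p = 0.345), 0.57 without control 3 (0.00656) and 0.028 ± 0.11 with the Xist covariate (0.966). Alg2, a mannosyltransferase, differed by 0.16 ± 0.10 on its brightest probe set and by 0.33 to 0.42 on the other 3, with limma adjusted p from 0.139 to 0.551. Alg12, a later mannosyltransferase, differed by 0.16 ± 0.09 (limma adjusted p = 0.515). In 9 of the 11 Alg genes control 3 lay nearer to the GnRH mean than to the other controls, against 64.3% of all named genes.

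Both mannosidases of glycan breakdown lay higher with GnRH on every array without passing. Man2b1, the lysosomal enzyme, had 7.36, 7.34 and 7.54 against 7.78, 7.79 and 7.80, the means differing by 0.38 ± 0.09 (limma adjusted p = 0.118), and passed without control 3 (0.44, 0.0118) but not with the Xist covariate (0.26, 0.332). The other Man2b1 probe set gave -0.0024. Man2c1, the cytosolic enzyme, had 7.88, 7.84 and 7.67 against 8.02, 7.97 and 8.06, the means differing by 0.22 ± 0.09 (limma adjusted p = 0.372). Its other 2 probe sets gave 0.30 and -0.032.

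Of the sulfotransferases that finish hormone and lactosamine chains, Chst1 alone passed. Chst8, the sulfotransferase of terminal N-acetylgalactosamine, had 7.17, 7.14 and 7.74 in controls and 7.66, 8.06 and 7.86 with GnRH. Controls 1 and 2 lay below all GnRH arrays and control 3 above 1 of them. The difference was 0.51 ± 0.16, or 1.43-fold (95% interval 0.15 to 0.87 on the log2 scale), and did not pass (limma adjusted p = 0.247). The other Chst8 probe set had 6.41, 6.69 and 7.55 against 7.22, 8.09 and 7.77, the means differing by 0.81 ± 0.28 (limma adjusted p = 0.283). Without control 3 the first probe set passed at 0.71 ± 0.11 (limma adjusted p = 0.00621), and with the Xist level as a covariate the difference was 0.16 ± 0.14 (0.777). The LH beta transcript Lhb had 12.03, 12.09 and 12.63 in the same controls and 12.38, 12.67 and 12.71 with GnRH, also with control 3 high. The mean of 5 gonadotrope markers was 9.86 to 9.95 in controls and 9.99 to 10.4 with GnRH, and its part in the Chst8 values was not tested. Of these, Gnrhr, the GnRH receptor, and Nr5a1, a transcription factor of gonadotropes, rose by 1.12 and 0.54 (limma adjusted p = 0.0215 and 0.0471), and Fshb had -0.30 ± 0.30 (0.723). B4galnt4, which is not a member and adds the N-acetylgalactosamine that Chst8 sulfates, differed by 0.12 ± 0.09 (limma adjusted p = 0.595). Chst9 and B4galnt3 were not analysed here. Chst10, which sulfates glucuronic acid in the HNK epitope of nerve adhesion molecules, differed by -0.16 ± 0.10 (limma adjusted p = 0.536).

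Enzymes that extend chains with galactose or N-acetylglucosamine did not pass, and B4galt4 showed the largest difference of all members. B4galt4, a galactosyltransferase of lactosamine chains, had 6.22, 6.29 and 8.15 in controls and 7.94, 8.22 and 7.78 with GnRH. Control 3 lay among the GnRH arrays, about as far from controls 1 and 2 as they did. The difference was 1.09 ± 0.41 (limma adjusted p = 0.319), rising to 1.72 ± 0.12 without control 3 (5.56e-05) and turning to -0.058 ± 0.15 with the Xist level as a covariate (0.945). The division of its 6 values thus followed that of Xist. B4galt6, a lactosylceramide synthase, had 7.58, 7.52 and 7.46 against 7.32, 7.22 and 7.39, the means differing by -0.21 ± 0.09 (limma adjusted p = 0.381). B3galt5, another galactosyltransferase, differed by -0.20 ± 0.10 on a probe set among the dimmest 25% of the array, and B4galt3, a widely expressed one, by 0.055 ± 0.08. The 12 members had a median of -0.056.

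Fucosyltransferases and sialyltransferases, which cap chains, showed 0 of 6 and 0 of 16 members past the threshold, with medians of -0.047 and -0.0046. Fut8, which adds the core fucose, had 6.93, 6.95 and 6.96 against 7.10, 6.99 and 7.26, the means differing by 0.17 ± 0.09 (limma adjusted p = 0.487). Its groups were apart by a narrow margin, GnRH 2 lying close to the controls. Fut4 and Fut9, of the Lewis-type fucosyltransferases, differed by 0.13 ± 0.12 and -0.080 ± 0.10, the latter on a dim probe set.

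St6gal1 and St3gal4, which place sialic acid on the galactose ends of N-glycans, differed by -0.0047 ± 0.10 and 0.017 ± 0.10. For St6gal1 the 95% interval ran from -0.23 to 0.22 on the log2 scale. St6galnac3, which adds sialic acid to N-acetylgalactosamine, had 6.01, 5.79 and 6.02 in controls and 6.47, 6.23 and 6.28 with GnRH. The groups were apart by 0.39 ± 0.10 in their means (limma adjusted p = 0.162). The value was 0.43 without control 3 (limma adjusted p = 0.0362) and 0.31 with the Xist covariate (0.382). St3gal6, a further enzyme of galactose ends, had 5.59, 5.60 and 5.49 against 5.41, 5.23 and 5.33, the means differing by -0.24 ± 0.09 (limma adjusted p = 0.316). St8sia2, a polysialyltransferase of the neural cell adhesion molecule, had 5.19, 5.25 and 4.81 against 4.77, 4.87 and 4.61, the means differing by -0.33 ± 0.13 (0.323). Without control 3, which lay within the GnRH range, it was the 1 member that fell, by 0.47 (limma adjusted p = 0.0192). Its probe set was among the dimmest 25% of the array, and with the Xist covariate the difference was -0.083 ± 0.12 (limma adjusted p = 0.885).

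Mucin-type O-glycan enzymes showed 0 of 16 members past the threshold and 0 with an unadjusted p under 0.05, with a median of -0.016. Galnt5, one of the transferases that start these chains, had 6.06, 6.07 and 6.55 against 6.45, 6.59 and 6.50, the means differing by 0.28 ± 0.13 (limma adjusted p = 0.413). Control 3 again lay among the GnRH arrays, and without it Galnt5 passed at 0.44 (0.0147), while with the Xist covariate it had -0.0067 ± 0.11 (0.992). Galnt13 and Galnt16, of the same family, differed by -0.20 ± 0.10 and -0.18 ± 0.09, and Galnt2 by 0.031 ± 0.11. The other Galnt16 probe sets gave -0.046 and 0.15, and the other Galnt2 probe sets ran from -0.23 to 0.26.

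Among the proteoglycan enzymes, Chpf was the 1 member that passed. Chpf2, its relative, had 7.84, 7.87 and 7.40 in controls and 7.99, 8.13 and 8.10 with GnRH. All GnRH arrays lay above all controls, with control 3 the lowest, and the difference was 0.37 ± 0.13 (limma adjusted p = 0.287). Its other 2 probe sets gave 0.29 and 0.43. Without control 3 the difference of the brightest Chpf2 probe set was 0.22 ± 0.09 and did not pass (limma adjusted p = 0.156). The fit with the Xist level as a covariate, which sets the GnRH arrays mostly against control 3, gave 0.65 ± 0.11 for Chpf2 (limma adjusted p = 0.0183), in a fit where 1.22% of all probe sets passed. With array weights, which lower the part of control 3 and raise that of control 2, 19 members passed and 9.73% of all probe sets. B3galt6, which adds the last galactose of the linker shared by both chain types, had 5.45, 5.62 and 5.63 against 5.68, 6.08 and 5.83, the means differing by 0.29 ± 0.11 (limma adjusted p = 0.338). The chondroitin synthases Chsy1 and Chsy3 differed by 0.079 ± 0.12 and 0.24 ± 0.12, the latter on a dim probe set. The heparan sulfate enzymes had a median of -0.047, with 9 of 14 below 0, beside 7456 of 14217 named genes. Hs3st1, which makes the antithrombin-binding site, had 6.32, 6.50 and 6.34 against 6.13, 6.17 and 6.21, the means differing by -0.22 ± 0.09 (limma adjusted p = 0.361). Ndst1, which starts sulfation of the chain, had 6.52, 6.57 and 6.33 against 6.28, 6.26 and 6.23, the means differing by -0.21 ± 0.09 (0.386). Both lay lower on every GnRH array, by gaps smaller than the range of the control values. Hs6st1 and Hs2st1, sulfotransferases of the same chain, differed by 0.17 ± 0.10 and -0.050 ± 0.10.

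**Figure D3:**
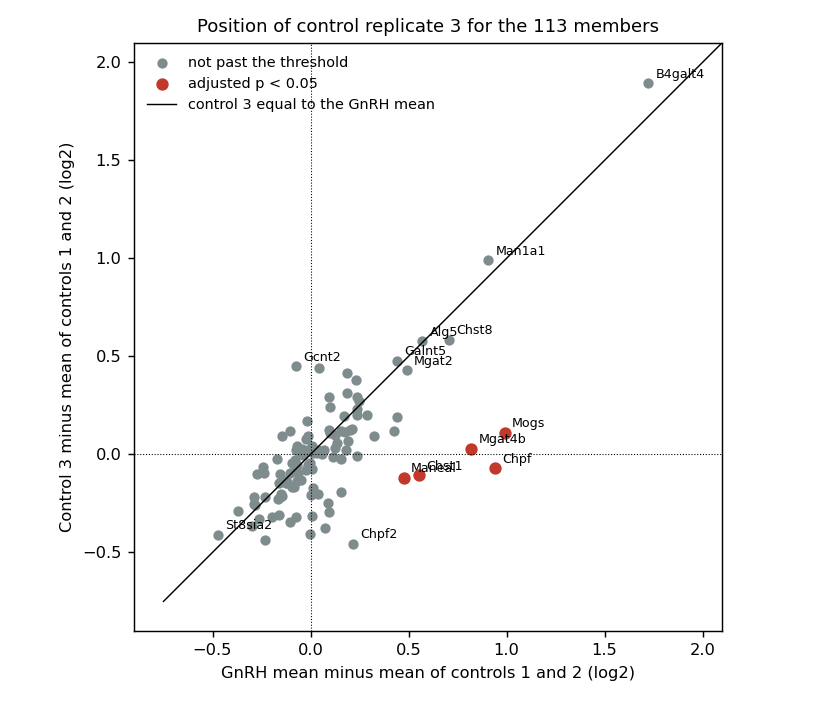
For each of the 113 members, the GnRH mean (horizontal) and control 3 (vertical), both as log2 differences from the mean of controls 1 and 2; on the diagonal control 3 equals the GnRH mean. The 5 members past the threshold (red) lie near 0 on the vertical axis, while B4galt4, Man1a1, Chst8, Alg5, Mgat2 and Galnt5 lie close to the diagonal.

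The 5 members that rose had control 3 with the other controls. Of the 17 members with an unadjusted p under 0.05 that did not pass, control 3 lay nearer to the GnRH mean in 9 and nearer to controls 1 and 2 in 8. Over all members it lay nearer to the GnRH mean in 57.5%, beside 64.3% of all named genes. Without control 3, 9 more members passed, 8 of them higher. Leaving it out also set arrays of low Xist against arrays of high Xist, so the group and the Xist level cannot be told apart in that fit.

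Probe sets of the same gene were compared where there were several. In 28 of 44 such members all probe sets had the same sign. Chst8, Man1a1, Chpf2 and Alg2 were higher with GnRH on each of their probe sets. Galnt1 had -0.073 on its brightest probe set and -0.39 ± 0.11 on another (limma adjusted p = 0.175). All 5 members past the threshold had 1 probe set each, so their changes have no second probe set beside them.

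**Figure D4:**
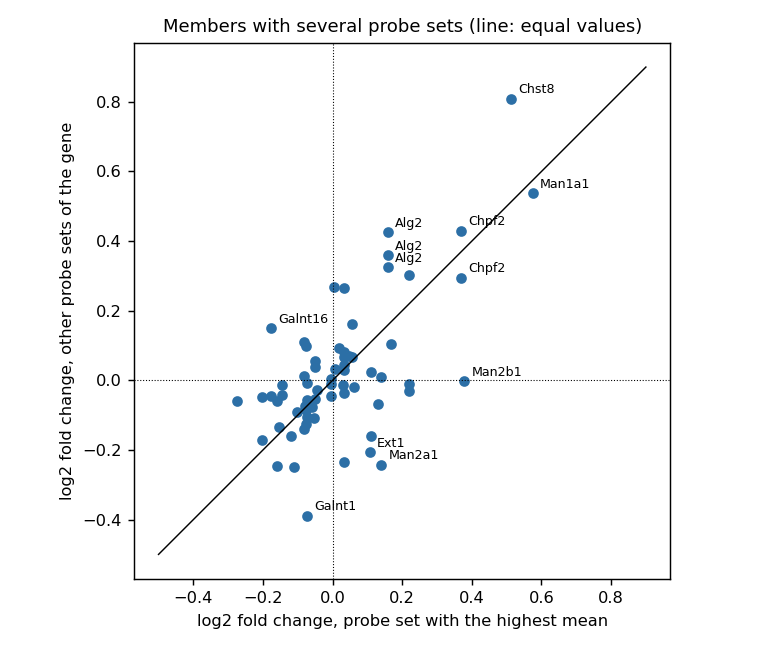
Log2 fold change of the other probe sets of a gene (vertical) against that of its probe set with the highest mean (horizontal) for the 44 members with several; the line marks equal values. Chst8, Man1a1 and Chpf2 lie toward the upper right, Galnt1 has the lowest other probe set at -0.39, and Man2b1 has 0.38 against -0.0024.

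Other genes of glycan synthesis and breakdown came from a list of 126, of which 104 were measured. By limma 0 passed the threshold, and 26 had an unadjusted p under 0.05, 24 of them higher and 2 lower. At that level 8.04% of named genes were higher and 5.17% lower. Of the 104 log2 fold changes of the listed genes, 76 lay above 0, beside 6761 of 14217 named genes, and the median was 0.11. In the oligosaccharyltransferase and its dolichol steps, 17 of 19 lay above 0, with a median of 0.21. Ddost, a subunit of that enzyme, had 9.52, 9.50 and 9.98 in controls and 9.91, 10.32 and 10.13 with GnRH, the means differing by 0.46 ± 0.15 (limma adjusted p = 0.253). Rpn2, another subunit, differed by 0.43 ± 0.16 (limma adjusted p = 0.308). Control 3 was among the GnRH arrays in both genes, and without it both passed, at 0.61 and 0.59 (limma adjusted p = 0.0125 and 0.0216). In glycoprotein quality control 10 of 11 lay above 0. Edem2, which removes mannose from misfolded glycoproteins, came closest to the threshold, with 7.06, 6.92 and 7.25 against 7.48, 7.75 and 7.74. Its means were apart by 0.58 ± 0.11, which did not pass (limma adjusted p = 0.0613). Without control 3 it passed at 0.67 (limma adjusted p = 0.00532). Lman1, a cargo receptor for glycoproteins, differed by 0.42 ± 0.15 (0.294).

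Sugar donors gave Gmppa (0.46 ± 0.12) and Gne (0.40 ± 0.11), in GDP-mannose and sialic acid synthesis, and their transport into the Golgi gave Slc35b2 (0.31 ± 0.11), the carrier of the sulfate donor, none past the threshold. Pofut2 (0.35 ± 0.09), a protein fucosyltransferase, and B4gat1 (0.60 ± 0.19), of O-mannose chains, had the smallest p-values among the other building enzymes. The lysosomal hydrolases Aga (0.76 ± 0.19) and Hexa (0.44 ± 0.11) had limma adjusted p of 0.138 and 0.135, and 12 of 13 genes of that list lay above 0. Among glycan-binding receptors Lgals3 and Lgals9, both galectins, had -0.35 ± 0.17 and -0.16 ± 0.10. Without control 3, 26 of these 104 genes passed, 25 of them higher, including 8 of 19 in the oligosaccharyltransferase list, where 7.44% of all probe sets passed. Lman1, Gmppa, Gne, Slc35b2, Slc35c1, Pofut2, B4gat1, Aga and Hexa were among them, all higher (limma adjusted p from 0.00179 for Aga to 0.0482 for Slc35b2). That fit sets arrays of low Xist against arrays of high Xist, and with the Xist level as a covariate 0 of the 104 passed.

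**Figure D5:**
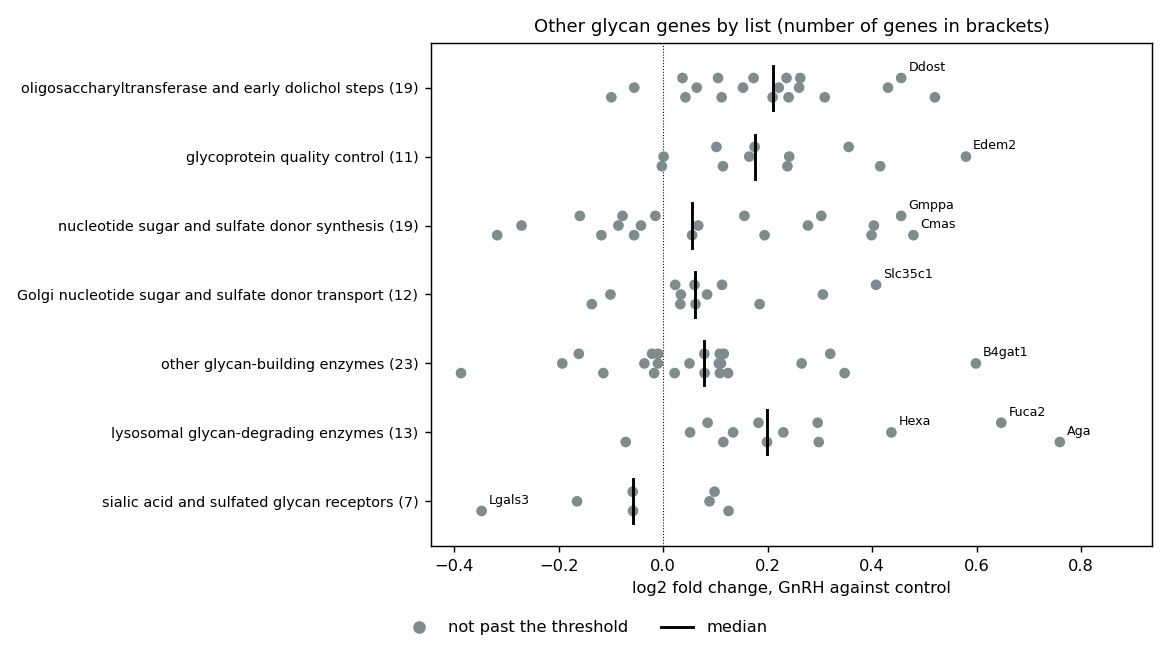
Log2 fold change (GnRH against control, n = 3 arrays each) of 104 other glycan genes by list, with the median of each list as a bar. No gene passed the adjusted threshold; medians run from -0.058 for glycan receptors to 0.21 for the oligosaccharyltransferase list.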

How the data were processed

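Total RNA of 6 samples from rat pituitary organ culture was extracted with Trizol and cleaned on a column, and biotin-labelled cRNA was hybridised to 1-colour arrays, per the labels' protocols. The authors deposited linear intensities of 31042 probe sets from RMA, per the submitters' processing notes. Sources used here name neither its software nor any filter, and hold no detection calls.

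The deposited intensities were converted to log2, without a pseudocount. The groups were tested with lmFit and eBayes of limma 3.58.1 (R 4.3.3), 2-sided, without covariates, keeping dim probe sets. The threshold was a Benjamini-Hochberg adjusted p under 0.05 over all probe sets. A log2 fold change is the GnRH mean minus the control mean. The test was checked on simulated data.

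Samples were grouped by title. Of the probe sets, 20826 had 1 gene symbol in the array annotation, 436 several and 9780 were not listed. Of the members, 112 matched the GRCr8 gene table by gene identifier. Members, pathways and gene lists were chosen with earlier results of these data known, so no list was tested or adjusted on its own. Named genes were the members past the threshold, the 3 members of each pathway with the smallest p-values, its brightest member, the enzymes of pituitary hormone glycans and the leading genes of each related list. Man1a1, Mgat4a, Manea, Chsy1, Chsy3 and Galnt1 were named outside that rule and were not among the named members checked for changes of sign. The number of arrays limits precision. Alternatives tried were 3 other scalings, a filter leaving out the dimmest 25% of probe sets, other variance models, weights per array, a replicate block, leaving out single arrays, the Xist level as a covariate, gene means and other thresholds.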

Additional observations from a re-analysis of the deposited data

How the results depend on the processing

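All 5 members past the threshold passed in each fit that kept the 6 arrays except that with the replicate number as a block. Members past the threshold numbered 5 with median centring, repeated quantile normalization, cyclic loess, dim probe sets left out (99 members tested), an intensity trend, robust variances, gene means or an adjusted p under 0.10, and 6 with the Xist level as a covariate, where Chpf2 joined. They numbered 19 with array weights (14 higher, 5 lower; 9.73% of all probe sets), which gave control 3 the lowest weight of 0.298, and 22 at an unadjusted p under 0.05. Without 1 array they ranged from 1 to 14. The count over all probe sets, 144, became 90 with quantile normalization, 93 with cyclic loess, 378 with the Xist covariate, 3020 with array weights, 341 at an adjusted p under 0.10 and 3808 at an unadjusted p under 0.05, and 20 to 2309 without 1 array. With gene means it was 86 of 14217 genes, another unit, or 0.605% where 0.464% of probe sets passed. The median of the members moved from 0.0096 to 0.027 with median centring, -0.0031 with quantile normalization, 0.028 with the Xist covariate and -0.0048 to 0.023 without 1 array. Array weights and leaving out control 3 both lower the part of that array. The weights also gave control 2 the highest weight of 2.72, beside 0.749 for control 1. Otherwise the cause was not tested.

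Deviations of same-numbered arrays correlated at 0.159, -0.049 and 0.156, and those of other pairs at -0.232 to 0.180. Not every array correlated best with its own number. With 3 arrays per group, these values cannot decide whether the replicate numbers pair the samples. With the replicate block 4 members passed, Maneal having an adjusted p of 0.0574 by limma, and 215 of all probe sets.

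Where 1 of the 38 named members changed sign, the value of the changed sign did not pass. B4galt4 and Galnt5 among them passed with their first sign without control 3 and with array weights. With the Xist covariate they were Man2a1 (-0.035), Mgat1 (-0.022), B4galt4 (-0.058), B4galt3 (-0.020), Fut9 (0.046), St3gal4 (-0.13) and Galnt5 (-0.0067). With quantile normalization they were B4galt3 (-0.015), St3gal4 (-0.019) and Galnt2 (-0.057), and with cyclic loess St3gal4 (-0.0099) and Galnt2 (-0.026). St6gal1 turned to 0.013 with median centring and 0.065 with array weights, Galnt2 to -0.031 with array weights and Man2a1 to -0.031 with gene means. Without control 3 these were Fut4 (-0.0030), St6gal1 (0.093) and Galnt2 (-0.075), without control 1 St3gal4 (-0.075), without control 2 Hs2st1 (0.0066), without GnRH 1 Galnt2 (-0.0066) and without GnRH 2 St6gal1 (0.031) and Hs2st1 (0.0013). Over the fits without 1 array, Fut4 ranged up to 0.20, St3gal4 up to 0.098, St6gal1 from -0.057, Galnt2 up to 0.093 and Hs2st1 from -0.13. Of the 104 related genes, 27 passed with array weights, 2 with the replicate block and 1 with robust variances.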
